A study of Danio rerio with 4 samples.

Results

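The complement components described here are 10 zebrafish genes of 32105 in the count table: the C3 paralogues c3a.1, c3a.2, c3a.6 and c3b.2, the factor B gene cfb, the C4 gene c4b, and the terminal components c5, c6, c7b and c9. Of these, 9 were found by their symbol and c6 through a synonym in RefSeq's table, which gives it as c6.2, the name used from here on. RNA from skin of male zebrafish was sequenced in 4 libraries. They are 1 library of 5 months (strain AB JxTu), 2 of 24 months, called replicates 1 and 2 (reporter strain AB JxTu Tg(wt1b:GFP), in which wt1b sequence drives green fluorescent protein), and 1 of 30 months (strain AB JxTu). The age of 24 months and the reporter strain therefore cannot be told apart. No label gives the number of fish behind a library, so p-values measure only spread between libraries. In edgeR's main fit of differences between ages, this spread is shared by all genes and is not that of the member itself.

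Complement is a cascade of plasma proteins that tags and lyses microbes. Antibody-bound C1 and the lectin pathway cut C4, factor B builds the alternative convertase, and every route meets at C3, whose fragments coat the target. Cleaved C5 then starts the assembly of C6, C7, C8 and C9 into a pore in the membrane. Most of these proteins come from the liver in vertebrates, while several, among them C7, C4 and C1q, are also made in other tissues and by macrophages and fibroblasts. Teleost fish carry several copies of C3.

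Total counts ranged from 11833498 (24 months, replicate 2) to 20441260 (30 months). Levels are given in CPM, counts scaled to the library totals after TMM correction, and differences are on the log2 scale. Epidermal keratin genes were abundant in every library (krt5 from 21077 to 49233 CPM, krt91 from 6498 to 17511 CPM). Markers of other cell types, of skin and of other tissues, stood apart between libraries. Collagen genes of fibroblasts ranged from 1729 to 25108 CPM for COL1A1 and from 1130 to 18503 CPM for COL1A2, and the muscle genes actc1b and ckmb from 5363 to 15920 CPM and from 2714 to 7500.0 CPM. The 9 testis markers summed to 634 CPM at 5 months, 653 and 2.07 CPM in replicates 1 and 2, and 1.68 CPM at 30 months. The 9 kidney tubule markers summed to 355 CPM at 5 months and 2.57 to 12.6 CPM elsewhere, with CDH17 at 78.0 CPM at 5 months and at most 0.420 CPM elsewhere. The 18 hepatocyte markers summed to 218 CPM at 5 months, 863 and 7.14 CPM in replicates 1 and 2, and 218 CPM at 30 months, and their part in the complement values below was not tested. In such bulk libraries fewer cells of a type and less RNA per cell cannot be told apart.

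Complement RNA was highest in replicate 1 for all 10 members and lowest in replicate 2 for 9 of them, c7b excepted. Among all 21535 tested genes, 19.8% were highest in replicate 1, 42.0% lowest in replicate 2 and 12.3% both, as the 9 members were. Together the 10 members took 0.0215% of the counts at 5 months (exact 95% binomial interval 0.0209 to 0.0222%, 3918 counts), 0.0634% in replicate 1 (0.0623 to 0.0645%, 12727 counts), 0.00853% in replicate 2 (0.00801 to 0.00907%, 1009 counts) and 0.0264% at 30 months (0.0257 to 0.0271%, 5400 counts). These intervals cover counting error only. Of the member counts, c4b alone held 1588 at 5 months, 4819 and 636 in replicates 1 and 2, and 3478 at 30 months. For these 10 members together, the 24-month libraries thus hold the largest and the smallest share and enclose both other ages. This does not extend to the sum of all complement genes. Of 42 other tested complement genes 37 were at least 2-fold lower in replicate 2 than in replicate 1. However, the far more abundant cfd stood at 594 CPM at 5 months, 620 and 1352 CPM in replicates 1 and 2, and 1624 CPM at 30 months.

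**Figure D1:**
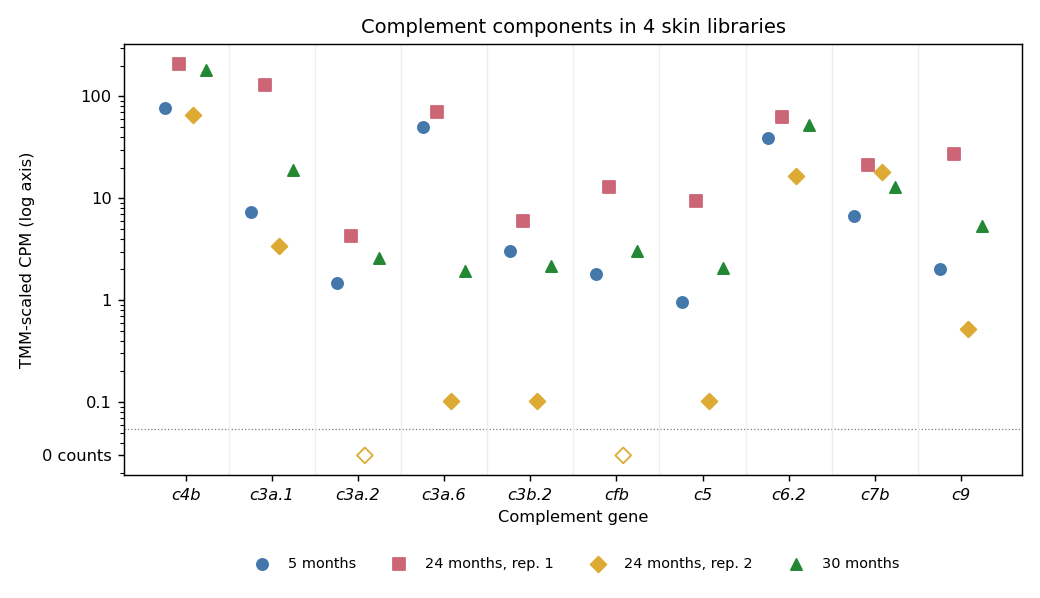
Level of each complement component (x axis) as TMM-scaled CPM on a log axis (y axis) in the 4 libraries, each point 1 library, with open symbols under the dotted line for 0 counts. Replicate 1 of 24 months lies highest for every gene, and replicate 2 lies lowest for every gene but c7b.

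The C4 gene c4b (ENSDARG00000038424), whose product is cut at the start of the classical and lectin routes, had the highest mean level of the members. It stood at 76.2 CPM at 5 months, 209 and 65.8 CPM in replicates 1 and 2, and 183 CPM at 30 months. Per kilobase of gene model it was also the highest member in each of the 4 libraries, at 12.7, 35.0, 11.0 and 30.5 CPM per kilobase in the same order. Its 4 levels fell into a lower pair (5 months and replicate 2) and a higher pair (replicate 1 and 30 months).

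Of the C3 paralogues, c3a.1 (ENSDARG00000012694) stood out in replicate 1, with 7.39 CPM at 5 months, 129 and 3.41 CPM in replicates 1 and 2, and 19.0 CPM at 30 months. Another order held for c3a.6 (ENSDARG00000043719), with 49.5 CPM at 5 months, 70.0 and 0.103 CPM in replicates 1 and 2, and 1.94 CPM at 30 months. This gene was therefore high in the 5-month library and replicate 1, the same libraries that held the testis markers. The germ cell gene PIWIL1, which silences transposons, stood there at 237 and 216 CPM, with 0 CPM in replicate 2 and 0.158 CPM at 30 months, and the part of testis RNA in c3a.6 was not tested. Per count of the 9 testis markers, c3a.6 had 0.0781 counts at 5 months, 0.107 and 0.05 in replicates 1 and 2, and 1.16 at 30 months, where the ratio rests on 37 counts of c3a.6 and 32 of the markers, and in replicate 2 on 1 and 20. The remaining C3 members were low in all libraries. In c3a.2 (ENSDARG00000087359) the levels were 1.49 CPM at 5 months, 4.21 and 0 CPM in replicates 1 and 2, and 2.57 CPM at 30 months. In c3b.2 (ENSDARG00000001818) they were 3.02 CPM at 5 months, 6.04 and 0.103 CPM in replicates 1 and 2, and 2.15 CPM at 30 months.

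The alternative pathway gene cfb (ENSDARG00000055278), whose protein forms the C3 convertase with C3b, stood at 1.82 CPM at 5 months, 12.99 and 0 CPM in replicates 1 and 2, and 3.05 CPM at 30 months. The count of 0 in replicate 2 allows up to 0.310 CPM, from 3 counts in that library.

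Of the terminal components, c6.2 (ENSDARG00000057113), which binds C5b, stood at 38.9 CPM at 5 months, 63.2 and 16.3 CPM in replicates 1 and 2, and 52.0 CPM at 30 months. The C7 gene c7b (ENSDARG00000057121), whose product anchors the growing complex in the membrane, stood at 6.77 CPM at 5 months, 21.2 and 18.0 CPM in replicates 1 and 2, and 12.9 CPM at 30 months. It was the only member whose 24-month libraries lay close together, averaging 19.6 ± 2.24 CPM (SD, n = 2), and the only one with both of them above the 5-month library, an order that 24.5% of all tested genes shared. The pore-forming c9 (ENSDARG00000016319) and the anaphylatoxin precursor c5 (ENSDARG00000021004) instead varied as c3a.1 did. In c9 the levels were 2.02 CPM at 5 months, 27.3 and 0.517 CPM in replicates 1 and 2, and 5.30 CPM at 30 months. In c5 they were 0.960 CPM at 5 months, 9.39 and 0.103 CPM in replicates 1 and 2, and 2.05 CPM at 30 months. RefSeq's table (GRCz12tu) lists c6.2 and c7b as direct neighbours among protein-coding genes, and replicate 2 differed from replicate 1 by −1.94 in c6.2 and by −0.23 in c7b on the log2 scale.

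The comparison of 24 with 5 months asks how old skin differs from that of young adults, and no member passed it. By edgeR's quasi-likelihood test with Benjamini-Hochberg adjustment 0 of the 10 members were called, against 0.125% of all tested genes, and 0 by DESeq2 or limma-voom. At an unadjusted p under 0.05 there was 1 member, and 438 of all 21535 genes. The fitted differences were positive for 9 members and negative for c3a.6, and their median was 1.19, beside −0.06 over all tested genes. The largest was that of c3a.1, at 3.17 (SE 1.07, unadjusted p = 0.00314, adjusted p = 0.838, n = 2 and 1), and that of c9 was 2.79 (SE 1.55, adjusted p = 1). The direction rested on replicate 1. Against 5 months 7 members lay at least 2-fold higher in replicate 1 and 0 lower (11.8% of all genes higher, 15.1% lower), whereas in replicate 2 only c7b lay at least 2-fold higher and 8 members lower (16.8% of all genes higher, 36.6% lower). Without replicate 1 the median of the members was −2.54, and the 5-month level lay between the 24-month libraries for 9 of the 10 members (38.1% of all genes). In 0 members were both 24-month libraries below it (36.9% of all genes).

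Between 30 and 24 months, both late ages, again 0 of 10 members passed edgeR's test, against 0.683% of all tested genes, and 0 were called by DESeq2 or limma-voom. At an unadjusted p under 0.05 there was 1 member, and 1024 of all 21535 genes. The median difference was −0.85, beside −0.14 over all tested genes. The gene nearest the threshold was c3a.6, at 1.94 CPM at 30 months against 70.0 and 0.103 CPM at 24 months, a difference of −4.17 (SE 1.21, adjusted p = 0.0674, n = 1 and 2). Without replicate 1 its difference was 4.14, so that the sign rested on this library. It came near the threshold only in edgeR's main fit, under RLE scaling and without a filter. By DESeq2, limma-voom, library totals alone, a mean of at least 5 CPM and another dispersion setting it was far from it. The 30-month level lay between the 24-month libraries for 9 of 10 members (38.3% of all genes) and above both for 0 (32.7%). Only c7b, like 26.3% of all genes, lay below both, at 12.9 CPM against 21.2 and 18.0 CPM (difference −0.61, SE 1.18, adjusted p = 1). Against replicate 1 the 30-month library was at least 2-fold lower in 6 members and higher in 0 (20.9% of all genes lower, 16.3% higher). Against replicate 2 it was at least 2-fold higher in 9 and lower in 0 (31.2% of all genes higher, 17.5% lower).

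**Figure D2:**
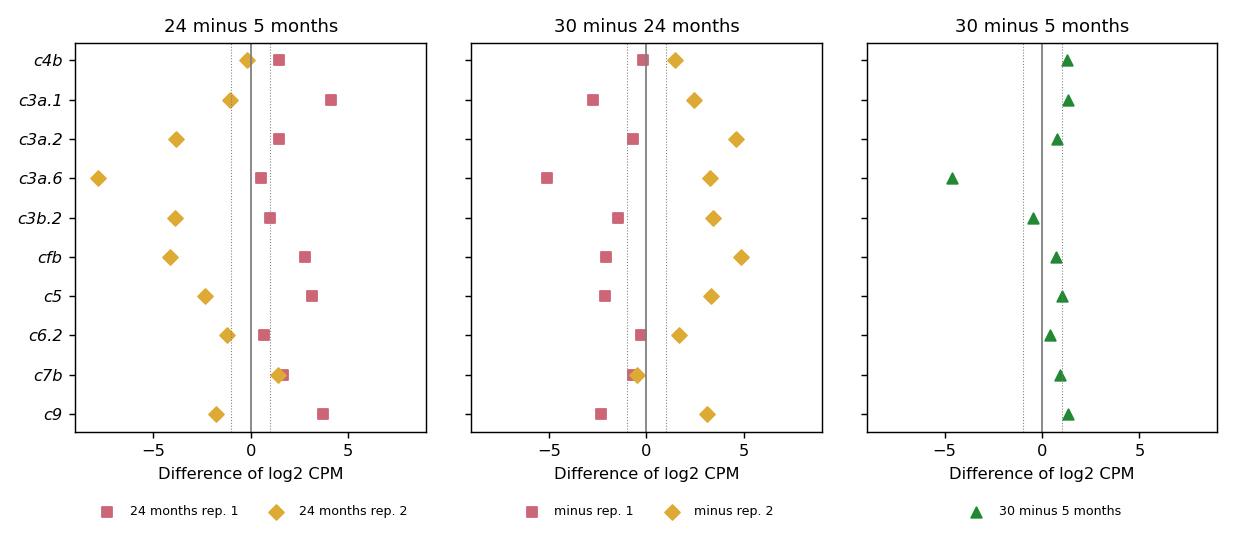
Differences of log2 CPM between single libraries (x axis, later minus earlier age, dotted lines at 2-fold) for each complement component (y axis), with 24 minus 5 months and 30 minus 24 months drawn for each replicate of 24 months. The replicates lie on opposite sides of 0 for 9 of 10 members in the left and the middle panel, while c7b has both on the same side.

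A line over age gave the same count. Of the 10 members 0 passed edgeR's test of the slope, as did 0.0% of all genes (336 of all genes and 0 members at an unadjusted p under 0.05), with 0 members called by DESeq2 or limma-voom. The slopes were positive for 8 members, with a median of 0.52 per 10 months beside 0.02 over all genes. For c4b the slope was 0.49 per 10 months (SE 0.37, adjusted p = 1) and for c7b 0.55 (SE 0.44, adjusted p = 1). Without replicate 1 the slope of 1 member passed, c3a.6 at −2.08 per 10 months (adjusted p = 0.00176), beside 1.8% of all genes tested there.

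The libraries of 30 and 5 months share their strain and have no replicates, so they were compared without a test. Of the 10 members 4 were at least 2-fold higher at 30 months, against 14.4% of all genes, and 1 was at least 2-fold lower, against 22.6%. With libraries scaled by their totals alone, 2 in place of 4 were higher. The higher ones were c3a.1 (1.35), c9 (1.35), c4b (1.26) and c5 (1.01), the last of which rested on 39 counts at 30 months and 20 at 5 months. The lower one was c3a.6, at 37 counts against 1031, a difference of −4.59. Of the rest, c7b (0.92), c3a.2 (0.75), cfb (0.71) and c6.2 (0.42) were positive and c3b.2 (−0.47) negative, so that 8 of 10 lay above 5 months, as 48.5% of all genes did. The hepatocyte markers summed to 218 CPM in both libraries, with 1 of 18 at least 2-fold higher and 4 lower at 30 months. The 18 macrophage markers summed to 355 CPM at 30 months, against 204 CPM in the 5-month library. Of the 17 that could be tested, 8 were at least 2-fold higher and 0 lower at 30 months. Several of these markers are genes that share the human-style names MPEG1 and MFAP4. Among 14 fibroblast markers 0 were at least 2-fold higher and 5 lower at 30 months, and among 8 neutrophil markers 0 and 3. The sum of the testis markers was 1.68 CPM at 30 months, against 634 CPM in the 5-month library.

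Within the age of 24 months 9 of the 10 members were at least 2-fold lower in replicate 2 than in replicate 1, against 34.7% of all tested genes, and 0 were higher, against 17.1%. The median difference was −5.25, beside −0.23 over all genes. The smallest differences were those of c7b (−0.23), c4b (−1.67) and c6.2 (−1.94), on 174, 636 and 158 counts in replicate 2. The other 7 differed by −4.85 to −8.36. Of these c3a.1 had 33 counts in replicate 2 and the rest 0 to 5. There c3a.6 had 1 count, against 1610 in replicate 1, and was 676-fold lower with a 95% counting interval from 121 to 26731. Likewise c5 had 1 count against 216, 90.7-fold lower with an interval from 16.1 to 3600.4, and c3b.2 had 1 against 139, 58.4-fold lower with an interval from 10.3 to 2323. With 0 counts in replicate 2, cfb was at least 41.9-fold and c3a.2 at least 13.6-fold lower, from 3 counts in that library.

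The hepatocyte markers differed between these libraries in the same direction. All 18 were at least 2-fold lower in replicate 2 than in replicate 1 (median −6.75), against 34.7% of all tested genes. Of the 18, 8 had 0 counts in replicate 2, among them the fibrinogen genes FGB and FGG and the apolipoprotein genes apoa2 and apobb.1. The transferrin gene tfa stood at 1.24 CPM there, against 404 CPM in replicate 1. In replicate 2 the whole list had 69 counts, while c4b alone had 636 counts, c7b 174 and c6.2 158. At 5 months, in replicate 1 and at 30 months the list had 4537, 19868 and 4146 counts, and c4b 1588, 4819 and 3478. For c3a.1 the counts per hepatocyte count were 0.0339 at 5 months, 0.150 and 0.478 in replicates 1 and 2, and 0.0873 at 30 months, and for c9 they were 0.00926, 0.0316, 0.0725 and 0.0244 in the same order. For c4b they were 0.350, 0.243, 9.22 and 0.839, for c6.2 0.179, 0.0732, 2.29 and 0.239, and for c3a.6 0.227, 0.0810, 0.0145 and 0.00892. The members did not share 1 direction in this ratio. Against 5 months it was higher in 4 and lower in 6 members in replicate 1, and higher in 8 and lower in 2 at 30 months. In replicate 2 it was higher in 7 and lower in 3, where several rest on 0 to 5 counts. Unlike the other libraries, where 0 markers were at 0 counts, replicate 2 had 8 at 0 counts and 16 of the 18 under 1 CPM. Its ratios therefore divide by another mix of markers. The ratio of c3b.2, among the higher, rests there on 1 count (0.0145, against 0.0139 at 5 months).

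**Figure D3:**
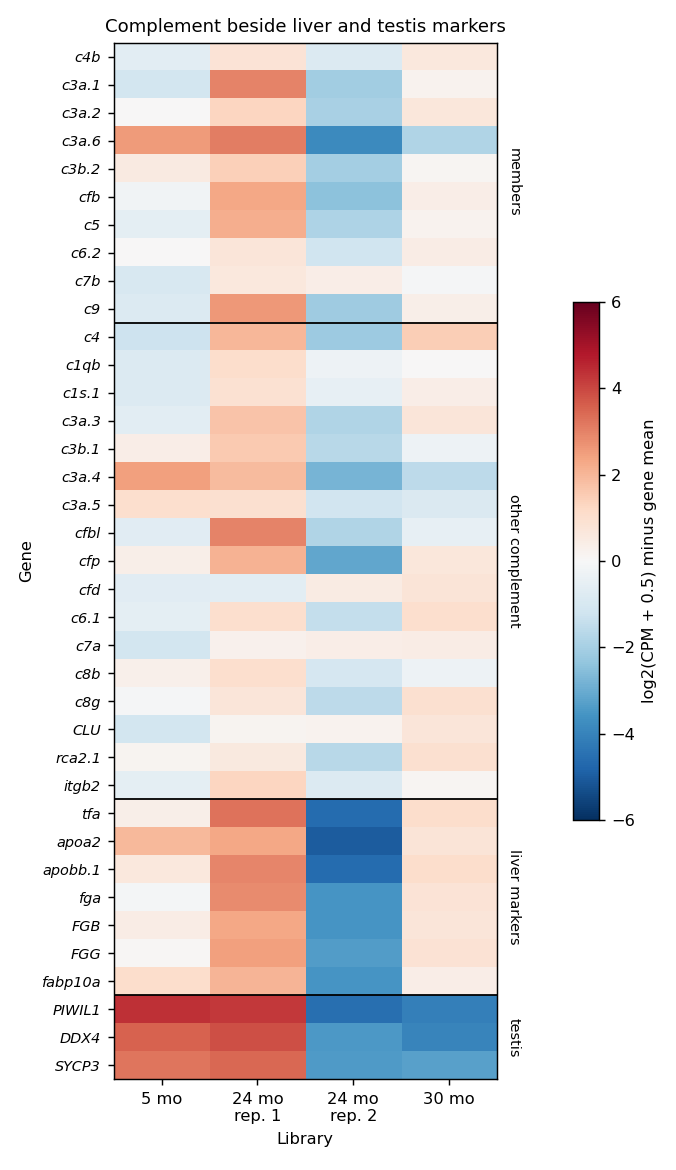
Each row is a gene and each column a library, and the colour gives log2(CPM + 0.5) minus the gene's mean over the 4 libraries. Only some of the listed hepatocyte and testis markers are drawn. The hepatocyte markers drawn, like 17 of all 18, are lowest in replicate 2 of 24 months, as are 9 of 10 members. The genes c3a.6, c3a.4 and c3a.5 are high in the same columns as the testis markers.

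The 8 C3 paralogues in the table, the 4 members and c3a.3, c3a.4, c3a.5 and c3b.1, differed in level and make-up between libraries. Their sum was 88.4 CPM at 5 months, 245 and 4.86 CPM in replicates 1 and 2, and 33.5 CPM at 30 months. Per kilobase of gene model c3a.6 held 55.0% of the C3 level at 5 months and c3a.1 held 8.38%. In replicate 1 the shares were 53.7% for c3a.1 and 28.4% for c3a.6, and at 30 months 59.6% and 5.96%. In replicate 2, on 47 C3 counts in all, c3a.1 held 73.6%. The larger share of c3a.1 at 30 than at 5 months thus stands beside a smaller C3 sum (−1.40, no test), with c3a.1 at 19.0 CPM at 30 months against 7.39 CPM at 5 months and c3a.6 at 1.94 CPM at 30 months against 49.5 CPM at 5 months. The paralogues c3a.4 (18.4, 12.5, 0 and 0.683 CPM from the 5-month library over replicates 1 and 2 to the 30-month library) and c3a.5 (1.73, 1.65, 0 and 0.105 CPM) were, like c3a.6, higher in the 5-month library and replicate 1 than in the other libraries. The other 2, c3a.3 and c3b.1, were highest in replicate 1 (7.52 and 13.8 CPM) and lowest in replicate 2 (0.207 and 1.03 CPM), as c3a.1 was. In RefSeq's gene order c3a.5 lies directly between c3a.6 and c3a.1, while c3a.1 alone of the 3 was higher at 30 months than at 5 months. The C3 paralogues summed to 1 feature did not pass edgeR's test either, with 0.50 between 24 and 5 months (SE 0.88, adjusted p = 1) and −1.90 between 30 and 24 months (SE 0.94, unadjusted p = 0.0439, adjusted p = 0.986). If reads matched more than 1 C3 paralogue, counting could have divided or dropped them, so the values of single C3 genes are uncertain. How alike the sequences of these paralogues are was not tested.

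**Figure D4:**
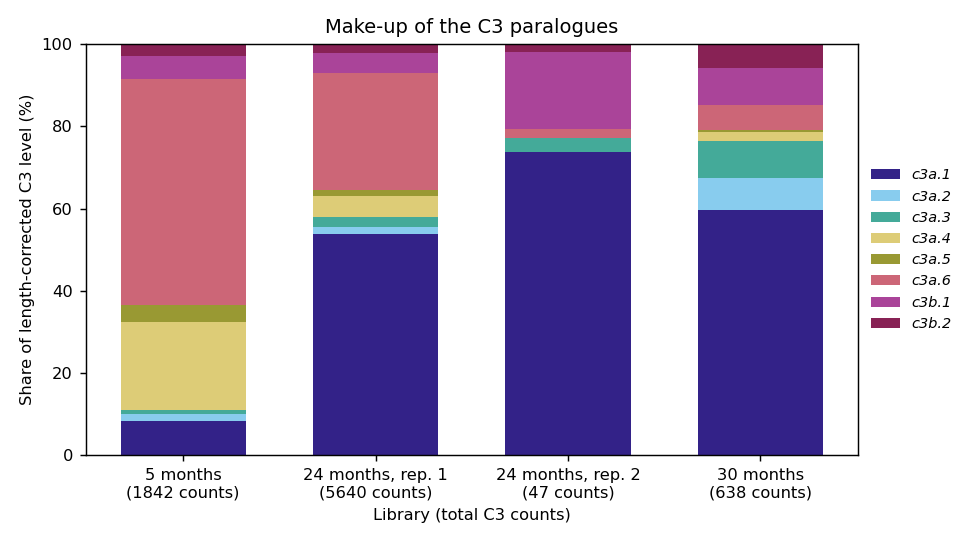
Share of the length-corrected level of all C3 paralogues (y axis, %) taken by each paralogue in each library (x axis, with the number of C3 counts behind each bar). The share of c3a.6 is 5.96% at 30 months and 55.0% at 5 months, and that of c3a.1 is 59.6% at 30 months and 8.38% at 5 months, while replicate 2 of 24 months rests on 47 counts.

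Of 45 other complement genes matched from lists of initiators, C3 paralogues, alternative pathway, terminal components, regulators and receptors, 42 could be tested, and 0 passed edgeR's test in any of the 3 fitted comparisons. At an unadjusted p under 0.05 there were 2 between 24 and 5 months, 2 between 30 and 24 months and 0 on age, beside 438, 1024 and 336 of all 21535 genes, and DESeq2 and limma-voom called 0. Between the 24-month libraries 37 of the 42 were at least 2-fold lower in replicate 2, and 1, cfd, was higher, beside 34.7% of all genes lower and 17.1% higher. Those lower were 12 of 12 initiators, 4 of 4 C3 paralogues, 2 of 3 alternative pathway genes, 4 of 5 terminal components, 13 of 15 regulators and 2 of 3 receptors. The second C4 gene, c4, had 23.4 CPM at 5 months, 226 and 11.9 CPM in replicates 1 and 2, and 156 CPM at 30 months, a difference of 2.34 between 24 and 5 months (unadjusted p = 0.0159, adjusted p = 1). The factor B-like gene cfbl stood at 8.50, 110, 3.62 and 9.45 CPM in the order of the libraries (2.74 between 24 and 5 months, adjusted p = 1). Both had replicate 1 highest and replicate 2 lowest, as most members did.

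Some complement genes were not lower in replicate 2 than in replicate 1. The C7 gene c7a stood at 60.5 CPM at 5 months, 160 and 176 CPM in replicates 1 and 2, and 177 CPM at 30 months, so that its later libraries lay together above the earliest (1.47 between 24 and 5 months, adjusted p = 1). Clusterin, CLU, which keeps the terminal complex out of membranes, stood at 137 CPM at 5 months, 328 and 344 CPM in replicates 1 and 2, and 499 CPM at 30 months, with a slope of 0.72 per 10 months (unadjusted p = 0.0624, adjusted p = 1). Factor D, cfd, the protease that activates factor B, stood at 594, 620, 1352 and 1624 CPM in the order of the libraries. Per kilobase of gene model it was the highest of the complement genes with a known length in every library. Neither c7a nor CLU nor cfd passed a test.

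Among initiators, the C1q chain c1qb stood at 8.11 CPM at 5 months, 31.8 and 12.0 CPM in replicates 1 and 2, and 15.3 CPM at 30 months, the C1 protease gene c1s.1 at 11.8, 40.2, 15.0 and 28.4 CPM, and the lectin gene hbl2 at 3.98, 1.22, 0.207 and 8.72 CPM (3.56 between 30 and 24 months, unadjusted p = 0.0465, adjusted p = 1). Properdin, cfp, which stabilises the alternative convertase, stood at 14.3, 48.2, 0.827 and 18.1 CPM, and the membrane regulator genes rca2.1 and rca2.2 at 68.0, 91.3, 18.6 and 118 CPM and at 21.2, 47.2, 4.45 and 57.1 CPM, while the carboxypeptidase N gene cpn1 (ENSDARG00000096720) had at most 0.683 CPM. Replicate 2 was lowest in cfp, hbl2 and both rca2 genes, but not in c1qb and c1s.1, which were lowest at 5 months. Of the terminal components, c6.1 stood at 13.5, 41.6, 7.45 and 42.3 CPM, and c8g and c8b, chains of C8, at 2.99 CPM or less throughout. Of the receptors, the integrin chain gene itgb2 stood at 39.9, 151, 34.1 and 65.8 CPM, while C3AR1 and c5ar1, the anaphylatoxin receptors, had at most 1.84 CPM.

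Of 19 tested genes of the acute phase and its upstream signals, 0 passed edgeR's test between 24 and 5 months or between 30 and 24 months (3 and 2 at an unadjusted p under 0.05, beside 438 and 1024 of all genes, and 0 by DESeq2 and limma-voom). Between the 24-month libraries 6 were at least 2-fold higher and 8 lower in replicate 2, beside 17.1% and 34.7% of all genes. Their median difference was 0.08, beside −0.23 over all genes. The transcription factor CEBPD stood at 295 CPM at 5 months, 443 and 1642 CPM in replicates 1 and 2, and 526 CPM at 30 months, highest where most members were lowest. The pentraxin gene apcs had 19.5 CPM in replicate 1, 0.103 CPM in replicate 2 and 0 counts in the other libraries (adjusted p = 0.301 between 24 and 5 months, 0.0851 between 30 and 24 months). The chemotactic LECT2 genes differed from each other: ENSDARG00000090889 stood at 4.18, 43.6, 6.62 and 34.2 CPM and ENSDARG00000033227 at 15.8, 36.6, 0.621 and 1.21 CPM.

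The genes most like a member were sought among 11750 named genes that averaged 5 CPM or more, by the root mean square difference of centred log2 CPM over the 4 libraries, which is a description of 4 values. Nearest to c4b were EGLN1 (ENSDARG00000004632, 0.05), cdh28 (0.07), dtx3lb.2 (0.11), coa3b (0.13) and the C1q chain c1qc (0.14). Nearest to c3a.6 were cfap53 (0.23), kif9 (0.26), haspin (0.27), lmnl3 (0.33) and NME5 (0.33), each of which had 0 counts in replicate 2. For c3a.1, chosen for this after its values were seen, the nearest was another member, c9 (0.29), followed by DRAM1 (0.34), olmf4l1 (0.40), MFAP4 (ENSDARG00000090783, 0.45) and cfbl (0.47). Macrophage markers were also highest in replicate 1 as a sum, at 204 CPM at 5 months, 1108 and 366 CPM in replicates 1 and 2, and 355 CPM at 30 months, and neutrophil markers summed to 254, 408, 186 and 156 CPM. The granulin gene grna.2 stood at 6.67, 245, 13.2 and 9.71 CPM and ptprc, the leukocyte CD45 gene, at 37.2, 137, 51.5 and 61.1 CPM, while the neutrophil genes srgn and MMP9 ranged from 68.8 to 112 CPM and from 42.4 to 68.5 CPM. The 14 fibroblast markers summed to 45869, 6428, 66065 and 10292 CPM, a sum made up mostly of collagen genes. Of the 14, 11 were lowest in replicate 1 and 5 were highest at 30 months. Against replicate 1, 7 were at least 2-fold higher and 0 lower in replicate 2, beside 17.1% and 34.7% of all genes. The part of these cell types in the complement values was not tested.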

How the data were processed

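Skin RNA of 4 libraries was analysed from the authors' deposited table of counts, whole reads per gene for 32105 Ensembl genes. Per the submitters' processing notes, the build was GRCz10 and the tools were STAR 2.4.1d, CASAVA 1.7 and featureCounts 1.4.6-p4; the labels' protocols name an mRNA kit. The sources used here give neither strand setting nor annotation release. A second deposited table, named for RPKM by the authors, was treated as a score: it divides by a library total that cycles over 24 rows. The cycle was solved and gave gene lengths, 93.2% of them whole within 0.05 among 4778 well-measured genes, which served for levels per length.

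Counts were tested with edgeR 4.0.16 in R 4.3.3 (TMM, filterByExpr, glmQLFit, Benjamini-Hochberg at 0.05 over 21535 genes, which include all 10 members). A model of group means gave 24 against 5 and 30 against 24 months, and its residual spread comes from the 24-month pair alone, with 1 degree of freedom. The libraries of 5 and 30 months are thereby taken to vary as much as that pair does. In the model of group means edgeR set the prior degrees of freedom, the weight of the spread shared by all genes, to infinity. A member's SE and p-value there use that shared spread, not the distance between its own 24-month libraries. A second model used age in months. Single libraries were compared by log2 CPM with a prior count of 2 and no test. The 24-month pair differed, with 3672 genes at least 2-fold higher and 7474 lower in replicate 2, and was treated as separate libraries. DESeq2 1.42.0, limma-voom (limma 3.58.1), other scalings and filters, and leaving out each 24-month library were alternatives. Precision follows the counts: 3 counts equal 0.130 to 0.310 CPM.

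Genes were matched by symbol, RefSeq synonym or human-style symbol. All members are named. Other lists give their most abundant gene and the 3 smallest p-values, and marker lists their 2 most abundant genes. Likeness was sought for the most abundant and the most variable member, and c3a.1 was added after its values were seen. The members and lists were chosen with earlier results of these data known, c6.1 was added to its list after the gene names were seen, and FGB, FGG and apobb.1 were named after their values were seen.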

Additional observations from a re-analysis of the deposited data

How the results depend on the processing

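No paired analysis was possible because the labels number no replicates and only 1 age has more than 1 library. Of the 10 members, 0 passed in the 3 fitted comparisons under library totals alone, RLE scaling, no filter, a mean of at least 5 CPM (which 6 members reach), DESeq2, limma-voom, the other dispersion setting and summed C3 paralogues. Leaving out a 24-month library left 1 library per age, so no age is replicated in the slopes fitted there. The other comparisons then had no residual degrees of freedom and so no test. The slope of c3a.6 that passed without replicate 1 rests on 1 count of this gene in replicate 2. Its p-value uses the spread shared by all genes. No conclusion on age is drawn from it. Medians of the members without a 24-month library ranged from −2.54 to 1.65 between 24 and 5 months, from −1.79 to 3.74 between 30 and 24 months and from 0.19 to 0.59 per 10 months. Under library totals alone the median of all genes moved to −0.26 between 24 and 5 months, against −0.06, and 2 members in place of 4 were at least 2-fold higher at 30 than at 5 months.

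Of 276 member values under alternatives 28 turned in sign, 9 of them with all libraries used. Leaving out a 24-month library turned the sign of every member but c7b in at least 1 comparison. Between 24 and 5 months the values without replicate 1 or 2 ranged for c3a.1 from −1.11 to 4.205, c3a.2 from −7.63 to 1.57, c3a.6 from −8.80 to 0.58, c3b.2 from −4.77 to 1.07, cfb from −7.92 to 2.90, c4b from −0.21 to 1.53, c5 from −3.12 to 3.36, c6.2 from −1.25 to 0.78 and c9 from −1.95 to 3.83. The lower end came without replicate 1. Between 30 and 24 months they ranged for c3a.1 from −2.76 to 2.48, c3a.2 from −0.71 to 8.41, c3a.6 from −5.16 to 4.14, c3b.2 from −1.48 to 4.28, cfb from −2.09 to 8.66, c4b from −0.20 to 1.47, c5 from −2.19 to 4.21, c6.2 from −0.28 to 1.67 and c9 from −2.36 to 3.34, with the higher end without replicate 1. On age they ranged for c3b.2 from −0.39 to 0.094. Limma-voom turned c3a.2 (−1.13), c3b.2 (−1.03), cfb (−0.32) and c6.2 (−0.15) between 24 and 5 months, c3b.2 (0.54) and cfb (1.05) between 30 and 24 months, and c3a.2 (−0.0057) on age. Library totals turned c6.2 (−0.051) between 24 and 5 months and c3a.2 (−0.021) between 30 and 24 months. Without replicate 1, values of c3a.2 and cfb rest on a library at 0 and are no bounds. The cause of the turns with all libraries used was not tested.

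Calls over all genes were 27 between 24 and 5 months, 147 between 30 and 24 months and 0 on age by edgeR, against 40, 77 and 27 by DESeq2, 3, 7 and 0 by limma-voom, and 0, 2 and 0 under library totals. They were 0, 1 and 0 with a mean of at least 5 CPM and with the other dispersion setting. At 1 to 5 counts in replicate 2, the levels of c3a.6, c3b.2, c5 and c9 there are limited by counting.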
